A study of Ovis aries with 42 samples.

Results

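The sheep gene ENSOARG00000009137 ranged between hypothalamus libraries from rank 2525 by counts to rank 1. From library to library, 30 other features followed its order. These 31 features, of 27054 IDs in the table and of 16464 that met the count rule, were chosen by their measured hypothalamus levels. A feature needed 10 or more counts in 7 or more of the 21 hypothalamus libraries and a Spearman correlation (rho, a correlation of ranks) above 0.8 with ENSOARG00000009137, the leading transcript, over those libraries. Levels were the log2 of CPM (counts scaled to the library total) with 0.5 added, and the first 37 IDs of the table's numbering were left out. No feature had a rho below -0.8. The hypothalamus values that chose the members are given below as description, and tests are kept to the pars tuberalis, to the phases and to the difference between the tissues.

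RNA was sequenced from 2 tissues of adult female Rasa Aragonesa sheep: hypothalamus (HT) and pars tuberalis (PT). Ewes were in the luteal phase, the follicular phase or anestrus, with no other treatment or genotype in the labels, and there were 7 libraries for each of the 3 phases in either tissue, 42 in 6 groups. Tissue of about 0.5 g gave total RNA, and only RNA with an integrity number above 7 was sequenced. Library totals lay between 14649356 and 37726207 counts. Nothing in the labels ties a library to an ewe, so p-values measure only the spread between these samples, which may be technical. Gene names do not come with the IDs, so the members' roles and the cell types that express them are not described, no marker of either tissue could be checked, and no sequence is shown.

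The hypothalamus governs reproduction through the pulsed release of gonadotropin-releasing hormone, and the pars tuberalis is a thin layer of pituitary tissue along the stalk, rich in melatonin receptors, that relays day length to the hypothalamus. In the luteal phase progesterone from the corpus luteum restrains that release, in the follicular phase oestrogen from growing follicles leads up to the ovulatory surge, and in anestrus ovarian cycles stop. Both tissues are dissected pieces of mixed cells, and in such bulk RNA fewer cells of a type and less RNA per cell cannot be told apart.

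The leading transcript spanned 2709-fold in the hypothalamus, from 68.7 CPM in luteal library 2 to 186027 CPM in follicular library 11, with a median of 7849.6 CPM. Those levels were 0.00687% and 18.6% of all counts in the library, around a median of 0.785%. In the pars tuberalis it ran from 100.2 CPM in follicular library 29 to 61054 CPM in anestrous library 37, with a median of 9457 CPM. It took more counts than any other feature in 4 of the 21 hypothalamus libraries (1, 6, 11 and 14) and in 3 of the 21 pars tuberalis libraries (22, 37 and 42), and ranked only 2525 in library 2. The name of a dominant transcript therefore fits 7 of the 42 libraries. Its SD of log2 level was 2.83 in hypothalamus and 2.62 in pars tuberalis, rank 3 among the features meeting the count rule in either tissue, against a median feature at 0.50 and 0.40.

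**Figure D1:**
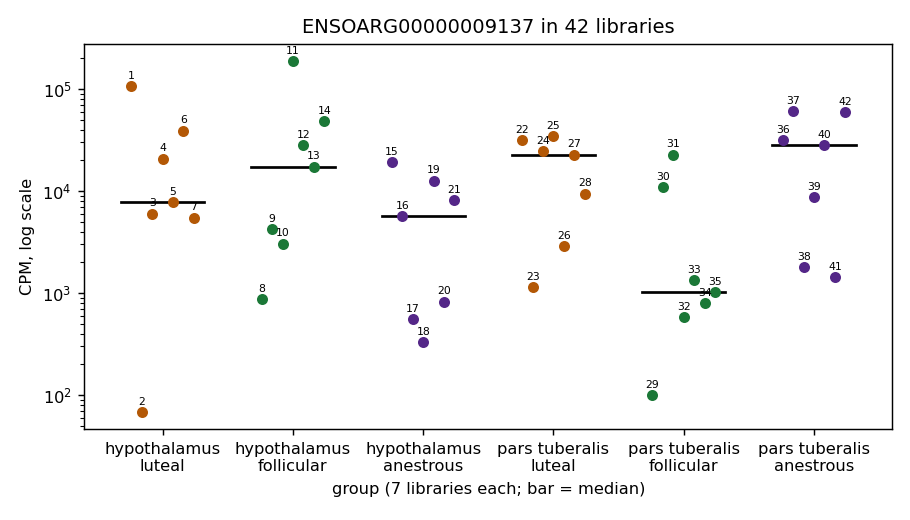
Level of the leading transcript ENSOARG00000009137 in CPM, on a log scale, in each of the 42 libraries (points, labelled with the library number), by group, with a bar at the group's median. Hypothalamus libraries run from 68.7 to 186027 CPM and pars tuberalis libraries from 100.2 to 61054 CPM, and the 3 phases overlap in both tissues.

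By phase, the leading transcript had a lowest, median and highest level of 68.7, 7849.6 and 106205 CPM in the luteal hypothalamus, 867, 17381 and 186027 CPM in the follicular hypothalamus and 333, 5714 and 19062 CPM in the anestrous hypothalamus. In the pars tuberalis the values were 1145, 22777 and 34425 CPM in the luteal phase, 100.2, 1025 and 22751 CPM in the follicular phase and 1442, 28084 and 61054 CPM in anestrus. The phases overlapped in both tissues, though the anestrous hypothalamus lacked the highest values and the luteal and anestrous pars tuberalis lacked the lowest.

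The 30 other members tracked it in the hypothalamus with a rho from 0.80 to 0.98 (median 0.88), 8 of them above 0.9. These values chose the members and are given without a test. The highest belonged to ENSOARG00000017058 (rho 0.98), which had a lowest, median and highest level of 0, 3.79 and 52.9 CPM in luteal, 0.415, 4.30 and 89.0 CPM in follicular and 0, 1.23 and 15.1 CPM in anestrous hypothalamus. It had 0 counts in library 2, where the leading transcript was lowest, and its maximum in library 11, where the leading transcript was highest. ENSOARG00000013932 was next (rho 0.95), with 6.18, 460.0 and 11246 CPM in luteal, 58.7, 609 and 5997 CPM in follicular and 17.7, 333 and 669.6 CPM in anestrous hypothalamus. Its lowest library was also library 2, and its highest was luteal library 6. This feature and ENSOARG00000013153 were the other members with the highest mean CPM in the hypothalamus. ENSOARG00000013153 (rho 0.82) had a lowest, median and highest level of 0.175, 84.8 and 834 CPM in luteal, 10.5, 76.0 and 816 CPM in follicular and 1.38, 59.4 and 164 CPM in anestrous hypothalamus, a span of 4755-fold over the 21 libraries.

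Membership fell off without a step at the threshold. Just inside stood ENSOARG00000012705 (rho 0.801) and ENSOARG00000008468 (rho 0.809), and just outside stood ENSOARG00000000958 (rho 0.7996) and ENSOARG00000021832 (rho 0.797). ENSOARG00000012705 ranged from 2.74 to 218 CPM over the hypothalamus libraries with a median of 42.4 CPM, and ENSOARG00000008468 from 0 to 7.34 CPM with a median of 1.16 CPM. The excluded ENSOARG00000000958 ranged from 0 to 5.59 CPM with a median of 0.632 CPM, and ENSOARG00000021832 stayed between 0.698 and 2.23 CPM.

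The members differed widely in how far they moved. For each doubling of the leading transcript, the fitted change of the others lay between 0.14 and 0.94 on the log2 scale, with a median of 0.39. ENSOARG00000013932 was the steepest at 0.94, and ENSOARG00000007082 the shallowest at 0.14. ENSOARG00000007082 ran only from 0.0864 to 1.66 CPM, and the 0.5 added before the log compresses changes at such low levels. Slopes and SDs of low members are therefore understated beside those of high members. The SD of their log2 levels ran from 0.48 to 2.82 (median 1.31). That was above the median of all 16464 features for 29 of the 30, and among the widest 10% for 25. The median level was under 1 CPM for 11 of the 30 and over 10 CPM for 8. Counts were present in all 21 hypothalamus libraries for 17, and the other 13 had 0 counts in at least 1 hypothalamus library, which allows up to 3 counts there, and counting noise is part of their ranks.

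The same few libraries set the extremes. Of the 30 others, 28 had their highest hypothalamus level in libraries 1, 11 or 14, the 3 with the most leading transcript. For 24 the lowest was in libraries 2, 17 or 18, the 3 with the least. Where several libraries tied at 0 counts, the lowest library number was taken, so the 24 include lowest levels shared with other libraries. ENSOARG00000007636, for example, had 0 counts in 11 hypothalamus libraries. In libraries 1, 6, 11 and 14 all 30 lay above their own median over the hypothalamus libraries. In libraries 2, 8 and 18 none did, and 12 of the 30 had 0 counts in library 2. Anestrous library 15 stood out among its group: 29 of the 30 lay above their median there, whereas between 0 and 14 did so in the other 6 anestrous libraries. Library 15 also held only 13.6% of its counts in the 10 largest features that are not members, against 24.9% to 40.8% in those 6. A smaller share there leaves more counts for features in general. The same count over all features was not made for any library, so no trait of the members is read from these counts.

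**Figure D2:**
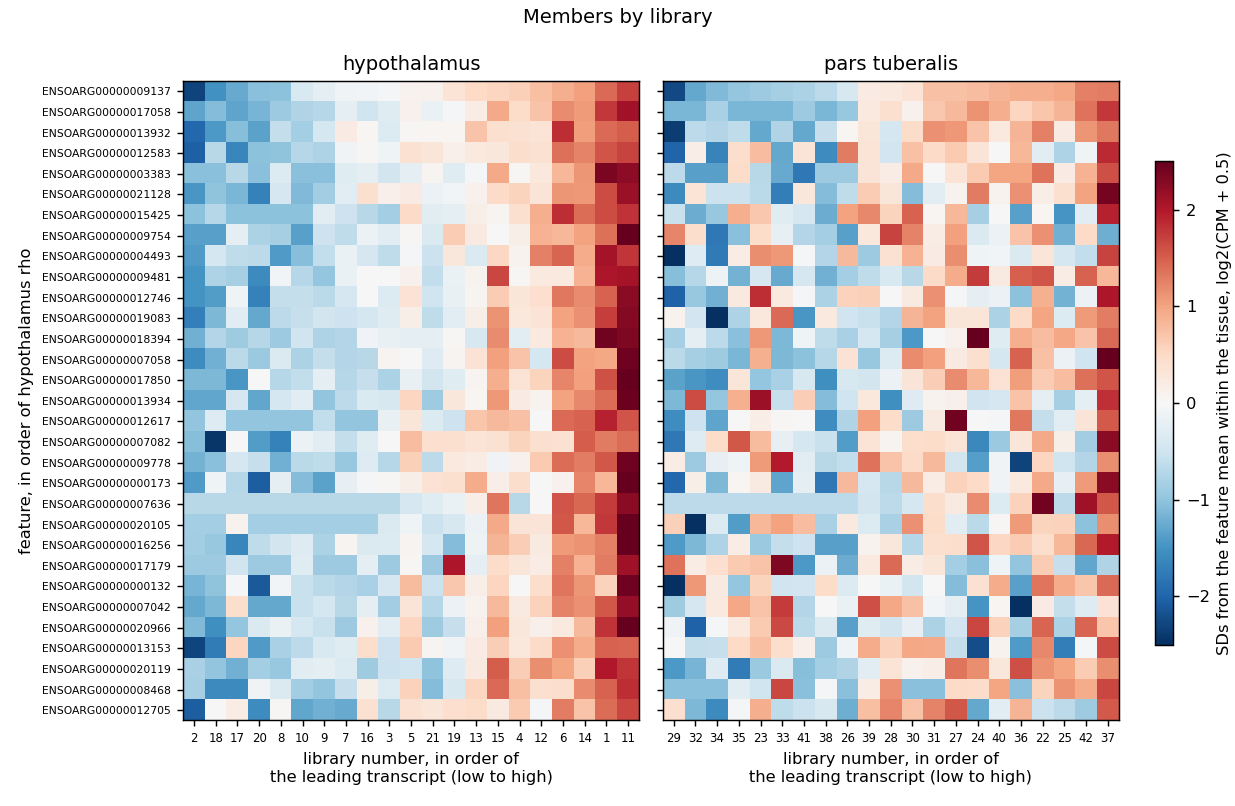
Each row is a member, in order of hypothalamus rho, and each column a library, ordered within its tissue from the lowest to the highest leading transcript. Colour gives the log2(CPM + 0.5) level in SDs from the member's mean in that tissue. The hypothalamus panel runs from blue to red in nearly every row, as the rule required, while in the pars tuberalis panel this holds for a few rows, the 5 called features among them.

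The members were also tied to one another. Over the 465 pairs of the 31 features in the hypothalamus, rho lay between 0.49 and 0.98 with a median of 0.82, it exceeded 0.8 in 295 pairs, and no pair was negative. Within the phases, which are parts of the same 21 libraries that chose the members, the median rho with the leading transcript was 0.96 in the 7 luteal libraries (0.81 to 1), 0.93 in the 7 follicular (0.71 to 1) and 0.73 in the 7 anestrous (0.37 to 0.93), against medians over all features of 0.07, -0.21 and 0.29. Once each phase's mean was subtracted, 27 of the 30 exceeded 0.8. These values describe the choice and support nothing beyond it, and they share the library totals.

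The pars tuberalis libraries played no part in the choice and hold the same measure, so co-variation was tested there. A Spearman correlation with the leading transcript was computed over the 21 pars tuberalis libraries for each of 16290 other features that met the count rule in that tissue, with a two-sided permutation p (100000 permutations) adjusted by the Benjamini-Hochberg method over all of them. Of the 30 members other than the leading transcript, 29 were tested. ENSOARG00000007636 was not, having 10 or more counts in only 5 pars tuberalis libraries. Positive correlation passed an adjusted p of 0.05 for 5 of the 29, against 0.11% of all features (18), and 0 members were called negative, against 0.0368%. The same 5 had a rho above 0.8, which 0.0798% of all features reached (13).

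ENSOARG00000017058, the closest follower in the hypothalamus, was also the closest member in the pars tuberalis. It had a lowest, median and highest level of 0, 3.02 and 5.10 CPM in luteal, 0, 0 and 2.97 CPM in follicular and 0, 2.53 and 10.7 CPM in anestrous pars tuberalis, and was at 0 counts in 4 of the 7 follicular libraries. Its rho was 0.91 and its Pearson r 0.93, with a permutation p of 1e-05, the smallest that the permutations can give, and an adjusted p of 0.0148 and 0.0204.

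ENSOARG00000013932 had 7.33, 218 and 2355 CPM in luteal, 0.165, 30.8 and 1783 CPM in follicular and 7.40, 277 and 2725 CPM in anestrous pars tuberalis, so its low follicular median sat beside a high follicular maximum. Its rho was 0.86 and its Pearson r 0.92. It moved more than the leading transcript did here, with a slope of 1.14 on the log2 scale.

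ENSOARG00000017850 varied less, with 22.8, 74.8 and 112 CPM in luteal, 14.6, 25.6 and 73.5 CPM in follicular and 14.9, 61.1 and 148 CPM in anestrous pars tuberalis. Its rho was 0.89 and its Pearson r 0.88. In the hypothalamus the same feature spanned 7.94 to 503 CPM.

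ENSOARG00000020119 had 0.539, 5.15 and 7.17 CPM in luteal, 0, 1.22 and 2.21 CPM in follicular and 0.423, 2.53 and 9.28 CPM in anestrous pars tuberalis, with a rho of 0.87 and a Pearson r of 0.88. ENSOARG00000016256 had 3.71, 10.1 and 18.5 CPM in luteal, 3.58, 5.35 and 9.89 CPM in follicular and 3.68, 10.6 and 23.1 CPM in anestrous pars tuberalis, with a rho of 0.87 and a Pearson r of 0.83. These ranges overlap across the phases for all 5 features. Each of these 4 had the same permutation p of 1e-05, the smallest possible, and the same adjusted p as ENSOARG00000017058.

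The 5 correlations stayed high without the extreme libraries and within the phases. Without libraries 29 and 32, the pair farthest from the median of the leading transcript, their rho lay between 0.83 and 0.90 (n = 19) and their Pearson r was 0.97, 0.90, 0.87, 0.87 and 0.81 in the order ENSOARG00000017058, ENSOARG00000013932, ENSOARG00000020119, ENSOARG00000017850 and ENSOARG00000016256. Within each phase, with 7 libraries, no rho of the 5 fell below 0.64.

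**Figure D3:**
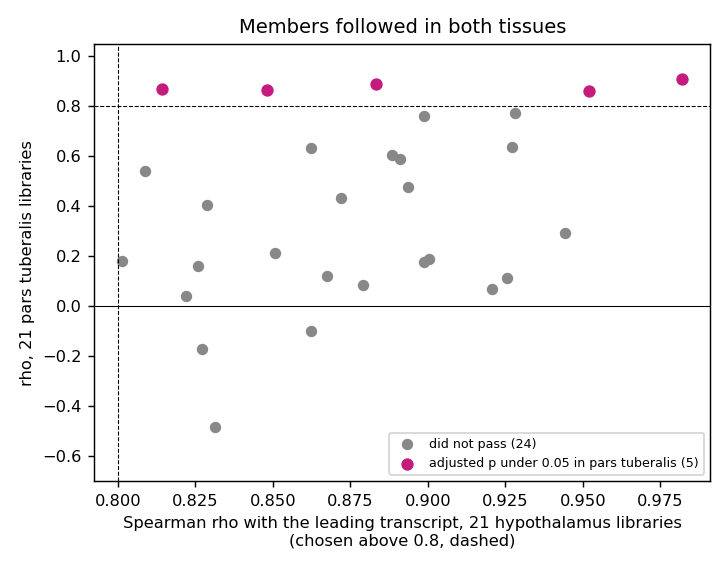
Spearman rho of 29 members with the leading transcript over 21 hypothalamus libraries (horizontal, chosen above 0.8) and over 21 pars tuberalis libraries (vertical). The 5 coloured points passed an adjusted permutation p of 0.05 in the pars tuberalis and have a rho of 0.86 to 0.91 there, while the 24 grey points run from -0.48 to 0.77.

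The other 24 tested members did not pass in the pars tuberalis. ENSOARG00000003383 (rho 0.77, permutation adjusted p = 0.0559) and ENSOARG00000009481 (rho 0.76, permutation adjusted p = 0.0585) came closest. With Pearson's r (0.79 and 0.78) both passed in a run of the permutations (permutation adjusted p = 0.0362 each). In another run of the same test ENSOARG00000009481 passed (permutation adjusted p = 0.0444) and ENSOARG00000003383 did not. The lowest belonged to ENSOARG00000017179, with a rho of -0.48 and a Pearson r of -0.48 (permutation p = 0.0275, adjusted p = 0.194), and to ENSOARG00000007042, with a rho of -0.17 and a Pearson r of -0.17 (permutation p = 0.461, adjusted p = 0.647). ENSOARG00000017179 had a lowest, median and highest level of 1.86, 2.63 and 6.94 CPM in luteal, 3.85, 4.32 and 10.6 CPM in follicular and 1.66, 2.41 and 3.97 CPM in anestrous pars tuberalis. Its follicular libraries were on the high side, opposite to the leading transcript, though the ranges overlapped, the luteal one reaching above the follicular median. Across the 29, 26 had a rho above 0 and the median was 0.41, beside a median of -0.26 over all features. With TMM scaling of the library totals, edgeR's adjustment for composition, the medians were 0.55 and -0.02.

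The same measures were taken in the pars tuberalis. Because the members were chosen for a high rho in the hypothalamus, higher pairwise rho, steeper slopes and wider spread there follow from the choice, and no difference between the tissues is read from them. Over the 435 pairs of the 30 features that met the count rule there, rho ran from -0.53 to 0.91 with a median of 0.25, 73 pairs were negative and 18 exceeded 0.8. The slope on the leading transcript had a median of 0.13, from -0.11 to 1.14. Of the 30 others, 27 had a wider log2 SD in the hypothalamus than in the pars tuberalis, and the median over all features was also wider there (0.50 and 0.40). For ENSOARG00000013153 the log2 SD was 2.73 in hypothalamus and 0.66 in pars tuberalis libraries, and its pars tuberalis rho was 0.04.

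Whether the leading transcript moved with the makeup of the libraries was examined through 3 measures: the library total, the number of features with a count, and the share of counts held by the 10 largest features that are not members. Over the 21 hypothalamus libraries rho was 0.37, 0.37 and -0.42, and Pearson's r was 0.29, 0.36 and -0.27. Over the 21 pars tuberalis libraries rho was -0.10, -0.32 and 0.25, and Pearson's r was -0.14, -0.21 and 0.27. None of the 6 pairs passed the adjusted permutation test, the lowest adjusted p being 0.199 for rho and 0.358 for r. Without the 2 libraries farthest from the median of each measure, r was 0.17, 0.38 and -0.18 in the hypothalamus and 0.06, -0.02 and 0.31 in the pars tuberalis. Within phases the library total and the leading transcript had a rho of -0.86, 0.54 and -0.75 in luteal, follicular and anestrous pars tuberalis (n = 7 each) and of 0.32, 0.07 and 0.68 in the hypothalamus, so the pooled value joins phases of opposite sign in the pars tuberalis. Some settings given below allow for the share of the 10 largest other features. Beyond these, what part library makeup plays in the members' levels was not tested.

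The design asks how the phases differ. The leading transcript was compared on the log2(CPM + 0.5) scale by an exact two-sided permutation test, 7 against 7 libraries, with 6 comparisons adjusted together. In the hypothalamus its mean was 12.9 ± 3.38 in the luteal phase, 13.6 ± 2.65 in the follicular phase and 11.5 ± 2.37 in anestrus (SD, n = 7 each). The follicular mean was 2.12 above the anestrous mean (exact p = 0.140, adjusted p = 0.280), and the luteal mean 1.40 above it (exact p = 0.388, adjusted p = 0.581). These differences were smaller than the spread between libraries of a phase. The luteal mean was lower than the follicular by 0.72 (difference -0.72, exact p = 0.684, adjusted p = 0.791).

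In the pars tuberalis the follicular phase held the low values, with a mean of 10.5 ± 2.64 against 13.4 ± 1.91 in the luteal phase and 13.7 ± 2.28 in anestrus (SD, n = 7 each). The difference was -3.16 from anestrus (exact permutation p = 0.0326, adjusted p = 0.107) and 2.88 for luteal minus follicular (exact permutation p = 0.0355, adjusted p = 0.107). Neither passed after adjustment over the 6 comparisons. Follicular library 31, at 22751 CPM, lay far above 5 of the other 6 follicular libraries, and without it the differences were -3.81 and 3.54, each with an exact permutation adjusted p of 0.0402. Luteal and anestrous libraries differed by -0.28 (exact permutation p and adjusted p = 0.791).

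For the other members the phases were compared with edgeR's quasi-likelihood test, adjusted over all features tested. In the hypothalamus 0 of 31 members passed in any of the 3 phase comparisons, and 0% of the 16350 features tested did. DESeq2 and limma-voom also called 0 members in these comparisons, although in follicular minus anestrous they called 68 and 1544 of the 16350 features, and DESeq2 called 3 in luteal minus anestrous. The members were chosen for moving together over these same libraries, so their differences repeat one another and are not separate evidence.

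In follicular minus anestrous hypothalamus all 31 members had a positive log2 fold change (log2 change below), 8 of them at an unadjusted p under 0.05, against 10.3% of all features. The median of the 30 others was 1.45, beside -0.02 over all features tested. This rested in part on library 11: without it 27 members were positive and 4 negative, with a median over the 31 of 0.43, and limma-voom gave 25 and 6, with a median of 0.25. The lowest p belonged to ENSOARG00000017850 and ENSOARG00000015425. ENSOARG00000017850 had a lowest, median and highest level of 17.7, 39.8 and 503 CPM in follicular against 7.94, 23.3 and 96.3 CPM in anestrous hypothalamus, with overlapping ranges (log2 change 1.92 ± 0.772 SE, edgeR adjusted p = 0.465). ENSOARG00000015425 had 0, 1.43 and 12.4 CPM against 0, 0.228 and 1.25 CPM (log2 change 2.99 ± 1.25 SE, edgeR adjusted p = 0.466). The leading transcript had a log2 change of 2.66 ± 1.199 SE in the same fit (95% interval 0.17 to 5.15, edgeR adjusted p = 0.480). The number at an unadjusted p under 0.05 depended on single libraries: it was 0 without follicular library 11, 15 without follicular library 10 and 11 without anestrous library 15, where 1825, 1302 and 3960 of all features reached that p. With the share of the 10 largest other features as a covariate it was 0, against 1201 of all features. Without library 15 edgeR called 890 of 16419 features in this comparison, and 0 of them were members.

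Luteal minus anestrous hypothalamus gave 30 of 31 positive log2 fold changes, 2 at an unadjusted p under 0.05 against 4.44% of all features. The median over the 31 was 1.27, and 0.49 without luteal library 1, with 27 positive and 4 negative. The 2 at that p were ENSOARG00000013932 (log2 change 3.22 ± 1.25 SE, edgeR adjusted p = 0.993) and ENSOARG00000015425 (3.01 ± 1.25 SE, edgeR adjusted p = 0.993). ENSOARG00000015425 had 0, 2.06 and 12.8 CPM in the luteal phase. The only negative value was that of ENSOARG00000017179, at -0.14 ± 1.28 SE (edgeR adjusted p = 0.994), with 0, 0.514 and 2.16 CPM in luteal against 0, 0.179 and 4.06 CPM in anestrous hypothalamus, the last in library 19. Its sign turned with limma-voom (1.54) and without library 2 (0.08), 3 (0.06), 7 (0.07) or 19 (1.81).

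Luteal minus follicular hypothalamus split the members into 11 positive and 20 negative, none at an unadjusted p under 0.05, against 1.14% of all features. Single libraries turned the whole set: without follicular library 11 all 31 were positive (median 0.83), and without luteal library 1 there was 1 positive and 30 negative (median -0.91). The lowest p values on either side were those of ENSOARG00000013932 (0.63 ± 1.15 SE), ENSOARG00000012617 (0.27 ± 1.10 SE), ENSOARG00000000173 (-1.09 ± 0.729 SE) and ENSOARG00000009754 (-1.18 ± 1.01 SE), each with an edgeR adjusted p of 0.9996. ENSOARG00000000173 had a lowest, median and highest level of 0.772, 4.24 and 8.36 CPM in luteal and 0.858, 3.76 and 38.8 CPM in follicular hypothalamus. ENSOARG00000009754 had 0, 1.19 and 5.07 CPM in luteal and 0, 1.52 and 17.9 CPM in follicular libraries. The ranges overlapped, and the high follicular value of both was in library 11. ENSOARG00000012617 had 0, 0.751 and 3.40 CPM in luteal and 0, 0.499 and 2.55 CPM in follicular libraries. The signs of these values turned when 1 library was left out: library 6 for ENSOARG00000013932 (-0.41), library 1 for ENSOARG00000012617 (-0.38), and library 11 for ENSOARG00000000173 (0.01) and ENSOARG00000009754 (0.32). With limma-voom all 31 members were positive in this comparison.

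In the pars tuberalis 30 of the 31 members passed the filter on low counts, ENSOARG00000007636 being the exception, and edgeR's quasi-likelihood test called 0 of them in the 3 phase comparisons, against 0% of 16301 features. limma-voom called 0 members as well, with 1 feature called in all. DESeq2 called 1 member, described below, in the luteal minus follicular comparison, where it called 11 of all features. Follicular minus anestrous gave 26 negative and 4 positive values, with a median over the 29 others of -0.40. At an unadjusted p under 0.05 there were 10 members, 9 of them negative, against 6.47% of all features. ENSOARG00000021128 had a lowest, median and highest level of 15.5, 24.9 and 35.4 CPM in follicular against 20.1, 39.7 and 78.9 CPM in anestrous pars tuberalis (log2 change -0.97 ± 0.291 SE, edgeR adjusted p = 0.702). ENSOARG00000018394 had 0.275, 0.661 and 1.51 CPM against 0.821, 1.37 and 4.71 CPM (-1.60 ± 0.632 SE, edgeR adjusted p = 0.702). Both sets of ranges overlapped, the follicular libraries being the lower ones. The 1 positive member at this p was ENSOARG00000017179 (0.90 ± 0.262 SE, edgeR adjusted p = 0.702), and the next positive was ENSOARG00000007042 (0.12 ± 0.179 SE, edgeR adjusted p = 0.906). The number of members at an unadjusted p under 0.05 was 3 without anestrous library 37, the library with the most leading transcript in this tissue, and 12 without anestrous library 41, where 942 and 1048 of all features reached that p. Without library 37 the median over the members was -0.23, with 22 negative and 8 positive.

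Luteal minus follicular pars tuberalis gave 26 positive and 4 negative values, 6 of them at an unadjusted p under 0.05 against 8.47% of all features. This comparison shares the follicular libraries with the one before. ENSOARG00000018394 had the lowest p: it lay at 0.655, 2.87 and 10.4 CPM in luteal against 0.275, 0.661 and 1.51 CPM in follicular libraries (log2 change 2.41 ± 0.641 SE, edgeR adjusted p = 0.469), and was the 1 member DESeq2 called (2.46, DESeq2 adjusted p = 0.0491). ENSOARG00000020119, one of the 5 features that followed the leading transcript in both tissues, had a log2 fold change of 2.15 ± 0.810 SE (edgeR adjusted p = 0.494). On the negative side stood ENSOARG00000017179 (-0.50 ± 0.260 SE, edgeR adjusted p = 0.618) and ENSOARG00000013153 (-0.20 ± 0.268 SE, edgeR adjusted p = 0.866). The number at an unadjusted p under 0.05 ran from 3 without luteal library 24 to 11 without follicular library 31, where 803 and 1341 of all features reached that p.

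In luteal minus anestrous pars tuberalis there were 12 positive and 18 negative values, a median over the others of -0.02, and 0 members at an unadjusted p under 0.05, against 3.23% of all features. Without anestrous library 37 there were 27 positive and 3 negative, with a median of 0.16. The lowest p values were those of ENSOARG00000017179 (0.40 ± 0.263 SE) and ENSOARG00000018394 (0.81 ± 0.599 SE) on the positive side and of ENSOARG00000021128 (-0.26 ± 0.288 SE) and ENSOARG00000013153 (-0.24 ± 0.268 SE) on the negative side, each with an edgeR adjusted p of 0.999. Without luteal library 24 the value of ENSOARG00000018394 was -0.08. ENSOARG00000021128 had 23.7, 33.02 and 51.6 CPM in the luteal phase.

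**Figure D4:**
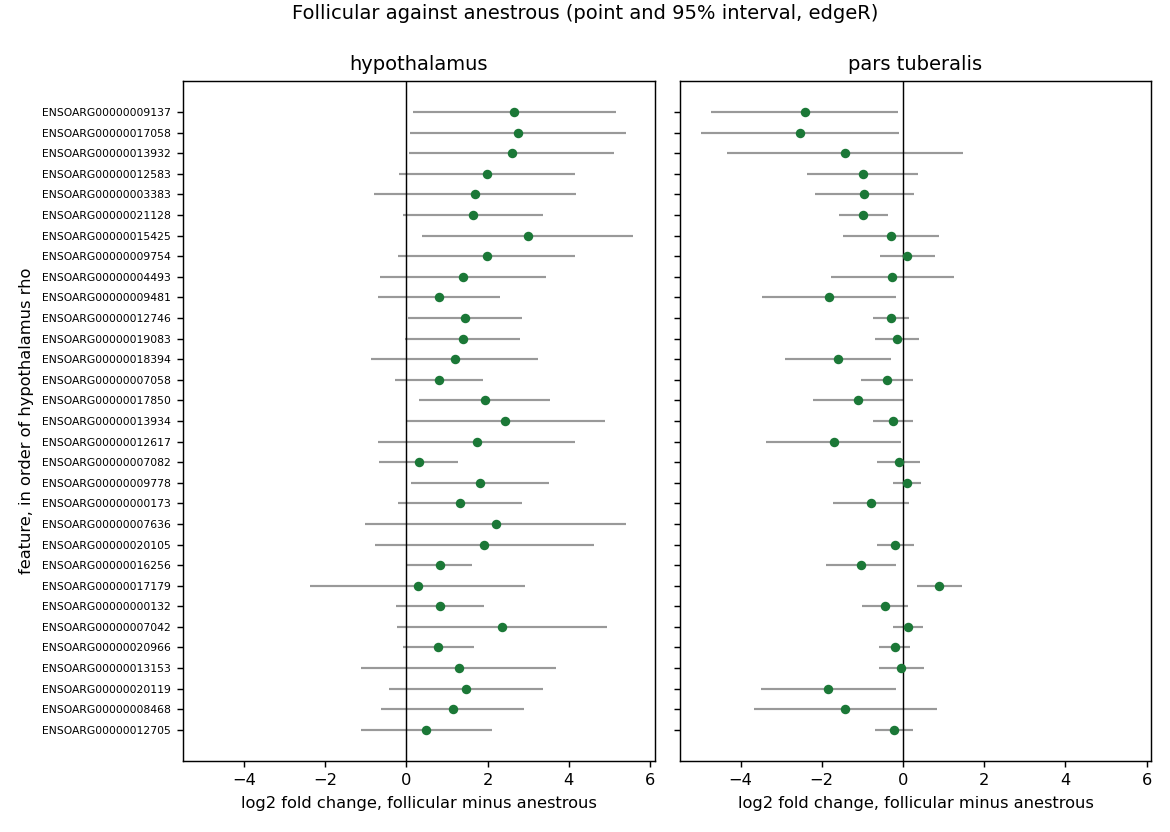
Log2 fold change of each member, follicular minus anestrous, with its 95% interval from edgeR, for hypothalamus (left, 31 members) and pars tuberalis (right, 30 members). All 31 points lie above 0 in the hypothalamus and 26 of 30 lie below 0 in the pars tuberalis, and none passed an adjusted p of 0.05.

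The follicular minus anestrous difference thus had opposite signs in the tissues for most members, and this difference of differences was tested in a fit of all 42 libraries. Pars tuberalis minus hypothalamus, it was negative for 30 of 31 members, with a median over the others of -2.14. By edgeR's quasi-likelihood test 0 members passed, against 0% of 17296 features, and 20 of 31 had an unadjusted p under 0.05, against 6.67% of all features. The members were chosen for moving together over the hypothalamus libraries, which enter this difference, so their values repeat each other. They are not separate evidence. The leading transcript had a value of -5.06 ± 1.67 SE (edgeR adjusted p = 0.544). The lowest p values were those of ENSOARG00000016256 (-1.84 ± 0.584 SE, edgeR adjusted p = 0.496) and ENSOARG00000017850 (-3.02 ± 0.966 SE, edgeR adjusted p = 0.521), and both belong to the 5 that followed the leading transcript in both tissues. The only positive value was that of ENSOARG00000017179 (0.64 ± 1.24 SE, edgeR adjusted p = 0.959). The count of 20 was 21 with DESeq2 and 24 without library 15, where 1259 and 2589 of all features reached that p. Apart from library 15, no single library was left out of this fit. With limma-voom, which weights libraries by their spread, it was 3 of 31, against 2309 of 17296 features, a share no larger than among all features, and the median over the members was -0.68. DESeq2 called 0 members and 31 features in all, and limma-voom called 0 features.

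In the other phase effects fewer members had an unadjusted p under 0.05. Pars tuberalis minus hypothalamus, luteal minus anestrous was negative for 30 of 31 members, with a median over the others of -1.21. For luteal minus anestrous 1 of 31 members had an unadjusted p under 0.05, against 4.16% of all features, namely ENSOARG00000015425 (-3.15 ± 1.32 SE, edgeR adjusted p = 0.9999). For luteal minus follicular 0 had, against 3.19%, with 28 of 31 positive, but 11 of 31 with limma-voom. edgeR, DESeq2 and limma-voom called 0 members in both, and DESeq2 called 7 and 1 of all features.

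The tissues were then compared over all 42 libraries, averaged over the phases. The leading transcript did not pass: its log2 fold change, pars tuberalis minus hypothalamus, was -0.54 ± 0.646 SE (95% interval -1.85 to 0.76, edgeR adjusted p = 0.448), and its sign turned with limma-voom (0.06). Of the 31 members 20 differed at an edgeR adjusted p under 0.05, against 75% of all 17296 features, so a difference between the tissues was no more frequent than in the table at large, and 21 had an unadjusted p under 0.05, against 76.3%. The direction was uneven: 17 were higher in the pars tuberalis, against 35.6% of all features, and 3 were lower, against 39.4%. In a test against a 2-fold difference (glmTreat) 10 members were higher, against 8.81%, and 1 was lower, against 14%. The members were chosen for moving together over the hypothalamus libraries, which enter this comparison. Their directions are therefore not separate evidence, and no conclusion is drawn from these counts.

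ENSOARG00000007058 had the lowest p. It lay at a lowest, median and highest level of 7.86, 10.5 and 28.2 CPM in the pars tuberalis and 0.526, 1.59 and 9.37 CPM in the hypothalamus, with 13 of 21 pars tuberalis libraries above every hypothalamus library (log2 change 2.28 ± 0.258 SE, 4.86-fold, edgeR adjusted p = 3.24e-10). ENSOARG00000009778 followed, at 7.03, 13.6 and 25.2 CPM against 0.166, 0.866 and 12.2 CPM, with 14 of 21 pars tuberalis libraries above every hypothalamus library (2.83 ± 0.345 SE, 7.13-fold, edgeR adjusted p = 1.84e-09). In both, the highest hypothalamus library was library 11, which held the most leading transcript.

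ENSOARG00000012583 had the widest difference, 14.05-fold, with 87.2, 791 and 3449 CPM in pars tuberalis libraries, where hypothalamus libraries had 0.456, 28.7 and 332 CPM (log2 change 3.81 ± 0.562 SE). Next was ENSOARG00000013153 (3.21 ± 0.538 SE, 9.25-fold), with 523, 1518 and 3082 CPM against 0.175, 76.0 and 834 CPM. In the 17 higher members the fold exceeded 4 in 9, and the smallest was 1.37-fold for ENSOARG00000020966 (0.45 ± 0.192 SE, edgeR adjusted p = 0.0324). No member had tissue ranges that did not overlap. The high hypothalamus libraries reached into the pars tuberalis range for each.

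The 3 members lower in the pars tuberalis were ENSOARG00000017058 (-2.28 ± 0.720 SE, edgeR adjusted p = 0.00453), ENSOARG00000009481 (-2.06 ± 0.456 SE) and ENSOARG00000008468 (-1.69 ± 0.588 SE). ENSOARG00000009481 had a lowest, median and highest level of 0.0816, 0.567 and 4.01 CPM in pars tuberalis libraries, below the 0.419, 2.87 and 18.2 CPM of hypothalamus libraries. For ENSOARG00000017058, limma-voom gave -2.10 with an adjusted p of 0.112.

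**Figure D5:**
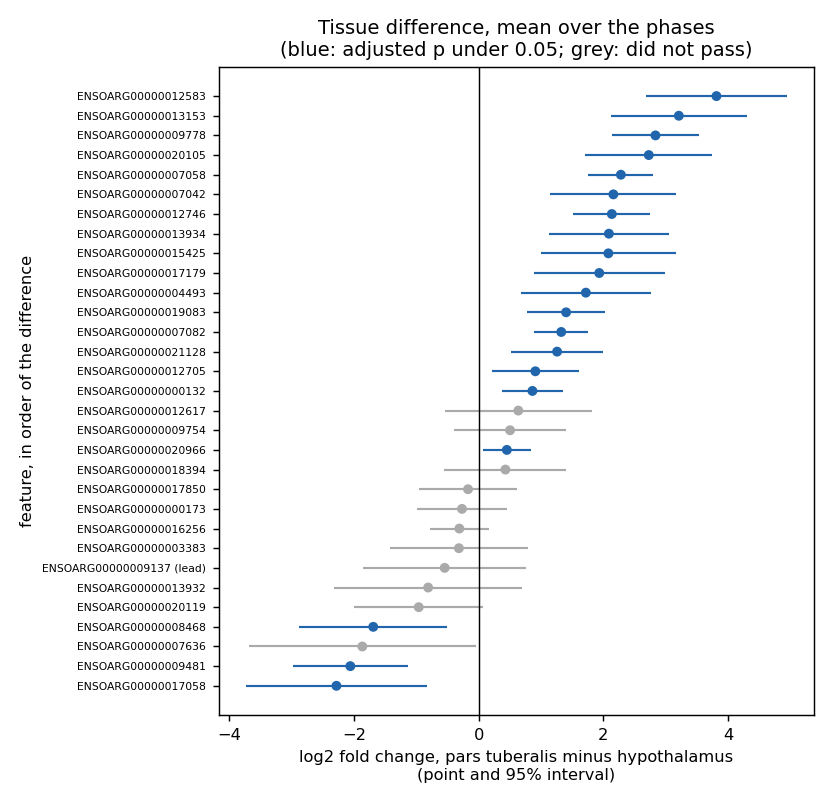
Log2 fold change, pars tuberalis minus hypothalamus and averaged over the phases, of each member with its 95% interval from edgeR, in order of size. Blue marks the 20 members at an adjusted p under 0.05, 17 higher in the pars tuberalis and 3 lower, and grey the other 11, the leading transcript among them at -0.54.

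Set side by side, the 5 features called with the leading transcript in the pars tuberalis were not among those higher there. This depended on the scaling: with TMM-scaled CPM ENSOARG00000021128, a higher member, was also called (rho 0.77, permutation adjusted p = 0.0343). Of the 5 called in the pars tuberalis, 0 were higher there, 1 was lower (ENSOARG00000017058) and 4 did not pass. The 17 higher members had a median pars tuberalis rho of 0.18 (-0.48 to 0.64), and the 12 other tested members a median of 0.77 (0.07 to 0.91). This split was seen in the data and carries no test.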

How the data were processed

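The values are the authors' deposited raw counts per Ensembl gene ID, 1 column for each of 42 libraries. The submitters' processing notes name DESeq2, FastQC 0.11.5, HISAT2 2.1.0, R 3.5.1, SAMtools 1.7, StringTie 1.3.5 and Trimmomatic 0.38, without their order. Not given in the sources used here were genome build, annotation, strand and shared-read handling, which leaves near-identical and overlapping genes uncertain. The 0 columns of no sample and 0 identical libraries left all 42 in use.

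CPM were computed from these counts and the column totals. The leading transcript is part of its own total, so where it holds up to 18.6% of the counts it lowers every other feature's CPM. Tests of differences ran in edgeR 4.0.16 under R 4.3.3 (robust quasi-likelihood F test, TMM, filterByExpr with a minimum count of 10, Benjamini-Hochberg adjustment over all features tested, threshold 0.05), with 1 fit per tissue for phases and 1 fit of 42 libraries for tissues and interactions. Correlations used 100000 permutations. DESeq2 1.42.0 and limma 3.58.1 (limma-voom with sample weights) were alternatives. The statistics were tested on simulated data.

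The members, lists and comparisons were chosen with earlier results of these data known. Named features were the leading transcript, the 2 other members with the highest hypothalamus rho and with the highest mean CPM, the 2 on either side of the threshold, the 2 highest and 2 lowest in pars tuberalis rho, and at most 2 in either direction with the lowest p in each comparison. ENSOARG00000003383, ENSOARG00000012583, ENSOARG00000007082, ENSOARG00000007636 and ENSOARG00000020966 were also named after their values were seen. The reference gene table (35057 genes) matched 0 of the IDs, so the marker lists and the part of the rule that needs symbols were not applied.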

Additional observations from a re-analysis of the deposited data

Results flagged for a closer look

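In groups of 7 libraries, single libraries stood apart from their group in 7 of 132 groups of a named feature (22 features in 6 groups), by a test of the gap on the log2 scale that chance passes in about 1 in 20 groups. Luteal hypothalamus library 2 had 68.7 CPM of the leading transcript, ENSOARG00000009137, with the other 6 between 5499 and 106205 CPM, and 1.12 CPM of ENSOARG00000021832, a feature just outside the threshold, with the others between 1.502 and 1.741 CPM. Anestrous hypothalamus library 15 had 15.5 CPM of ENSOARG00000020119, with the others between 0.312 and 1.63 CPM, and 1.28 CPM of ENSOARG00000012617, with the others between 0 and 0.303 CPM. Anestrous hypothalamus library 20 had 5.07 CPM of ENSOARG00000012705, with the others between 32.3 and 53.1 CPM. In the pars tuberalis, luteal library 27 had 6.48 CPM of ENSOARG00000012617, with the others between 0.356 and 1.40 CPM, and follicular library 33 had 2.16 CPM of ENSOARG00000008468, with the others between 0 and 0.308 CPM.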

How the results depend on the processing

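The number of members was 101 with rho above 0.7, 9 with rho above 0.9 and 11 where all 21 hypothalamus columns needed 10 counts. With TMM-scaled CPM it was 24, 22 of them among the 31, and with Pearson's r it was 25, 23 of them among the 31. It ran from 24 (without library 1 or 11) to 61 (without library 17) with single libraries left out. Pars tuberalis co-variation called 8 members with TMM-scaled CPM, of 41 positive calls over all features, 9 with edgeR's slope test, of 39, and 5 to 6 with single libraries left out, of 8 to 22. The 5 of the report were among them each time. With residuals on the share of the 10 largest other features, a setting chosen after seeing the data, it called 6, of 23. Luteal minus follicular pars tuberalis had 1 member among the 11 features DESeq2 called. With single libraries left out, the leading transcript's difference ran from 0.77 to 2.54 (luteal minus anestrous), 1.47 to 2.76 (follicular minus anestrous) and -1.36 to 0.42 (luteal minus follicular) in the hypothalamus, and from -0.81 to 0.27, -3.81 to -2.51 and 2.23 to 3.54 in the pars tuberalis. The sign turned for luteal minus follicular hypothalamus without library 2, and for luteal minus anestrous pars tuberalis without library 23 (0.27), 26 (0.05), 37 (0.09) or 42 (0.08). Both pars tuberalis differences from the follicular phase passed only without library 31. With single libraries left out, the edgeR value ran, for luteal minus follicular hypothalamus, from -1.72 to 0.77 for ENSOARG00000009137, from -0.41 to 1.74 for ENSOARG00000013932, from -0.38 to 0.82 for ENSOARG00000012617, from -1.33 to 0.010 for ENSOARG00000000173 and from -1.81 to 0.32 for ENSOARG00000009754. It ran from -0.71 to 1.81 for ENSOARG00000017179 in luteal minus anestrous hypothalamus, and in luteal minus anestrous pars tuberalis from -0.079 to 1.13 for ENSOARG00000018394 and from -0.40 to 0.0019 for ENSOARG00000013153. With limma-voom the sign turned for ENSOARG00000009137 (0.61), ENSOARG00000000173 (0.35) and ENSOARG00000009754 (1.07) in luteal minus follicular hypothalamus, for ENSOARG00000017179 (1.54) in luteal minus anestrous hypothalamus and (-1.02) in that difference between tissues, and for ENSOARG00000009137 (0.062) between tissues. The cause of these changes was not tested. No paired analysis was possible because the groups share no library numbers and the labels tie no library to a ewe. At medians under 1 CPM, counts limit what can be seen.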

Other observations

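Outside the members, 8 features had a pars tuberalis rho above 0.8 with the leading transcript, and their hypothalamus rho lay between 0.17 and 0.83 (median 0.57). The highest was ENSOARG00000008646, with a pars tuberalis rho of 0.87 and a hypothalamus rho of 0.83. It missed the choice only by its counts, having 10 or more in 6 hypothalamus libraries where 7 were needed, and its level ran from 0 to 2.87 CPM there and from 0 to 2.52 CPM in the pars tuberalis. ENSOARG00000013280 (0.85 and 0.70) and ENSOARG00000015385 (0.81 and 0.73) also followed in both tissues, below the threshold in the hypothalamus. ENSOARG00000008024 followed in the pars tuberalis (rho 0.82, from 0.231 to 15.6 CPM) and had a hypothalamus rho of 0.17, over 1.72 to 20.9 CPM. ENSOARG00000008838 was alike, with a rho of 0.84 and 0.32. The remaining 3 were ENSOARG00000001616 (0.85 and 0.60), ENSOARG00000010522 (0.84 and 0.54) and ENSOARG00000013183 (0.83 and 0.53). A rho above 0.8 in one tissue and below it in the other is no test of a difference between the tissues, which was not tested. These features were picked by their values, which are given as description.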
